A study of Glycine max with 12 samples.

Results

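The comparison described here sets pods of soybean plants grown with little water against pods of fully watered plants, both at moderate temperature. It contrasts 6 of the 12 libraries of the series, chosen by their labels: 3 of water-deficit pods and 3 of control pods. The main fit holds all 12, so the other libraries share in its filter and its estimate of spread. All plants were Glycine max, cultivar Magellan, inoculated with the nodule bacterium Bradyrhizobium japonicum, and grew in pots to their first open flower, which took 16 to 18 days. They were then assigned at random to a growth chamber, 1 chamber for each condition. Irrigation of the water-deficit plants was cut to 30% of what was available for transpiration, with days at 28 °C and nights at 24 °C. In the control chamber irrigation stayed at 100%, under the same day and night temperatures. Combined-stress plants (30% water) and heat-stress plants (100% water), both with days at 38 °C and nights at 28 °C, are used below to read the same genes at a higher temperature. Each library was made from 10 to 15 pods pooled from 8 to 10 plants, so the spread between libraries is that between pools. Because each condition had its own chamber, an effect of water supply cannot be told apart from one of the chamber.

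Plants short of water close their stomata and raise the hormone abscisic acid, which acts through transcription factors on genes for protective proteins, compatible solutes and water channels. In legumes the pod wall and the young seeds depend on sugar and water delivered from the leaves, and a deficit during flowering and pod set is known to cost the plant pods and seeds. The question was which transcripts in the pods differ when water is withheld without added heat. The deposited tables give gene IDs without names, so no gene is assigned to these pathways here, and the labelled tissue was not checked against marker genes. In bulk pods, fewer cells of a type and less RNA per cell cannot be told apart.

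Total read counts ranged from 17516340 to 19974956 in the water-deficit libraries and from 19576901 to 26591115 in the control libraries. At this depth 3 counts, taken as the smallest level a library could show, corresponded to between 0.150 and 0.171 CPM in water deficit and between 0.113 and 0.153 CPM in control (CPM, a count scaled to the library total). These floors reflect counting error alone, since the labels name no molecular identifiers and PCR copies then count as reads. Whether both mates of a read pair were counted is not given in the sources used here, so 3 counts may stand for fewer fragments. Water deficit replicate 2 stood apart. Its log2 CPM values correlated across genes with those of replicates 1 and 3 at Pearson r of 0.885 and 0.901, whereas replicates 1 and 3 correlated at 0.949 and the 3 control libraries at 0.948 to 0.959. In the same measure it lay at 0.893 to 0.898 to the control libraries, and replicates 1 and 3 at 0.927 to 0.957. Its low counts were irregular: of the counts between 6 and 65, 87.5% were even in this library, against 59.1 and 62.8% in the other water-deficit libraries and 59.6 to 64.0% in control. Among the libraries of the higher temperature used below, heat stress replicates 1 and 3 had 72.4 and 78.8% and combined stress replicate 3 had 75.5%, against 59.9 to 66.5% in the others. Of 4493 genes whose median over all other libraries lay between 3 and 8 CPM, with no value under 50% of it, 56 had 0 counts in water deficit replicate 2. The same count was 0 in each of the other water-deficit and control libraries. The common biological coefficient of variation was 0.429 over the 3 water-deficit libraries, 0.252 over replicates 1 and 3 alone, and 0.247 over the 3 control libraries. Of 33331 genes averaging at least 1 CPM, replicate 2 was the water-deficit library farthest from the other 2 for 48.1%, replicate 1 for 30.2% and replicate 3 for 21.7%. The main counts and values below are therefore given with and without this library.

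Few transcripts passed the test, and nearly all of them were lower in water deficit. With all 3 water-deficit libraries, 37 of 38737 genes tested were called (0.0955%): 2 (0.00516%) rose and 35 (0.0904%) fell in water deficit relative to control. Without replicate 2, 24 of 39939 genes were called (0.0601%), 3 of them higher (0.00751%) and 21 lower (0.0526%). Calls are from edgeR's quasi-likelihood test with Benjamini-Hochberg adjustment over all genes tested, at an adjusted p under 0.05, with the 4 conditions in 1 fit. At an unadjusted p under 0.05 there were 703 higher and 982 lower genes with all libraries, and 882 higher and 855 lower genes without replicate 2. Both directions together, these are 1685 of 38737 and 1737 of 39939 genes. A share of 0.05 of the genes tested would pass this threshold if none changed, and both counts are below it. The count of calls depended on single libraries in both groups: it was 11 without water deficit replicate 3, 4 without control replicate 2 and 21 without control replicate 3, against 33 without water deficit replicate 1 and 27 without control replicate 1. Without water deficit replicates 2 and 3 together, 5 genes were called, 4 higher and 1 lower. Of the 37 genes, 3 were called in every one of the 6 fits that left out one of these libraries, and 35 in at least 1.

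**Figure D1:**
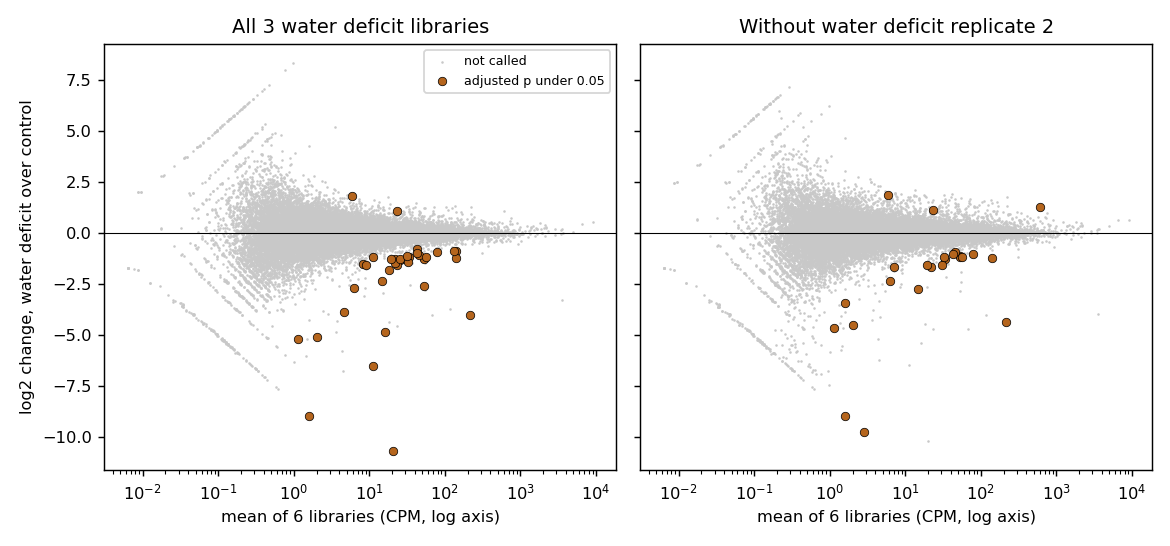
Log2 change of water deficit over control (vertical axis) against the mean level over the 6 libraries in CPM (horizontal log axis), for 38737 genes tested, with all libraries on the left and without water deficit replicate 2 on the right. Brown points are the 37 and 24 called genes, of which 35 and 21 lie below 0; the grey cloud of genes that were not called narrows as the mean level rises.

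For most transcripts the groups were close. The median log2 change was -0.0040 with all libraries and -2.0e-05 without replicate 2, so the scaling placed the middle of the distribution at no change in both. Among the 18736 genes averaging 10 CPM or more, 90% had a log2 change between -0.37 and 0.37, and 50 genes were at least 2-fold higher and 51 at least 2-fold lower. Without replicate 2, the same level of expression gave 122 genes at least 2-fold higher and 66 at least 2-fold lower. The error of the log2 change was larger at lower levels of expression. The median standard error of the log2 change was 0.15 for genes at a mean of 100 CPM or more, 0.20 from 10 to 100 CPM, 0.43 from 1 to 10 CPM and 1.37 under 1 CPM. Of the 5406 genes under 1 CPM 0 were called by edgeR with or without replicate 2. With all libraries 240 of them had an unadjusted p under 0.05 in edgeR, as had 1685 of all 38737 genes tested. Of the 5406 genes limma-voom called 0 and DESeq2 called 12. In the next levels 8 of 14595 genes (1 to 10 CPM), 25 of 17136 (10 to 100 CPM) and 4 of 1600 (100 CPM or more) were called.

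The 35 lowered transcripts fell into steep and moderate falls, divided here at a log2 change of -2. Together they held 798, 732 and 683 CPM in water deficit replicates 1, 2 and 3, against 2298, 2135 and 2019 CPM in the 3 control libraries. These sums describe genes chosen by this same contrast. All 3 water-deficit libraries lay below all 3 control libraries for each of the 35, where 6.51% of all tested genes did so. The 2 raised genes lay above control in the same way, as did 4.82% of all tested genes. In the authors' FPKM values (fragment counts scaled by gene length and library size), all 37 differed in the same direction and the groups again did not overlap for any of them, where 6.72% of all tested genes lay lower and 4.44% higher without overlap. These are the libraries that chose the 37, and limma on log2(FPKM + 1) called 8 of them. The size of a change could differ between the measures. For example, 1 steep fall with 0.236 CPM in water deficit and 22.4 CPM in control had 15.5 and 130 FPKM.

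Among the 11 steep falls the log2 change ranged from -10.70 to -2.37, and from -10.24 to -2.38 without replicate 2. The values -10.70 and -10.24 belong to 1 gene with 0, 0 and 1 counts in water deficit replicates 1, 2 and 3. They are therefore not measured ratios. The summed level of the 11 genes was 48.6, 65.9 and 29.4 CPM in the water-deficit libraries, against 687, 657 and 588 CPM in control. In control, most of that sum came from 1 abundant gene, which had 24.7 ± 9.76 CPM in water deficit and 405.7 ± 34.3 CPM in control (SD, n = 3 each), 16.4-fold lower. For 3 of the 11 every water-deficit library was at or under 3 counts. Control pods had 40.5 ± 6.95, 3.13 ± 0.929 and 2.25 ± 0.447 CPM of these (SD, n = 3). Water deficit replicates 1 and 3 were at least 236-fold, 18.2-fold and 13.1-fold lower, computed against 3 counts per library. Replicate 2 had 0 counts of all 3, which does not limit its level to 3 counts, so the bounds do not cover it. Without replicate 2, 6 of the 11 were still called and 5 were not, among them the gene with the 236-fold bound (edgeR adjusted p = 0.156).

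The other 24 were moderate falls, with log2 changes from -1.85 to -0.82 and a median of -1.25, and from -1.68 to -0.70 with a median of -1.23 without replicate 2. Control levels of these genes ranged from 12.4 to 194.7 CPM, and their summed level was 750, 666 and 654 CPM in the water-deficit libraries, against 1611, 1479 and 1431 CPM in control. Taking each library by itself, the median log2 ratio of the 24 to the control mean was -1.06, -1.24 and -1.33 in water deficit replicates 1, 2 and 3. The median of replicate 2 lay between those of the other water-deficit libraries. Gene by gene, replicate 2 lay above both of them for 7 of the 24, below both for 10 and between them for 7. The fit that chose these genes included replicate 2, which favours genes where it was low too. Its place among them therefore does not show how this library behaves at other genes.

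**Figure D2:**
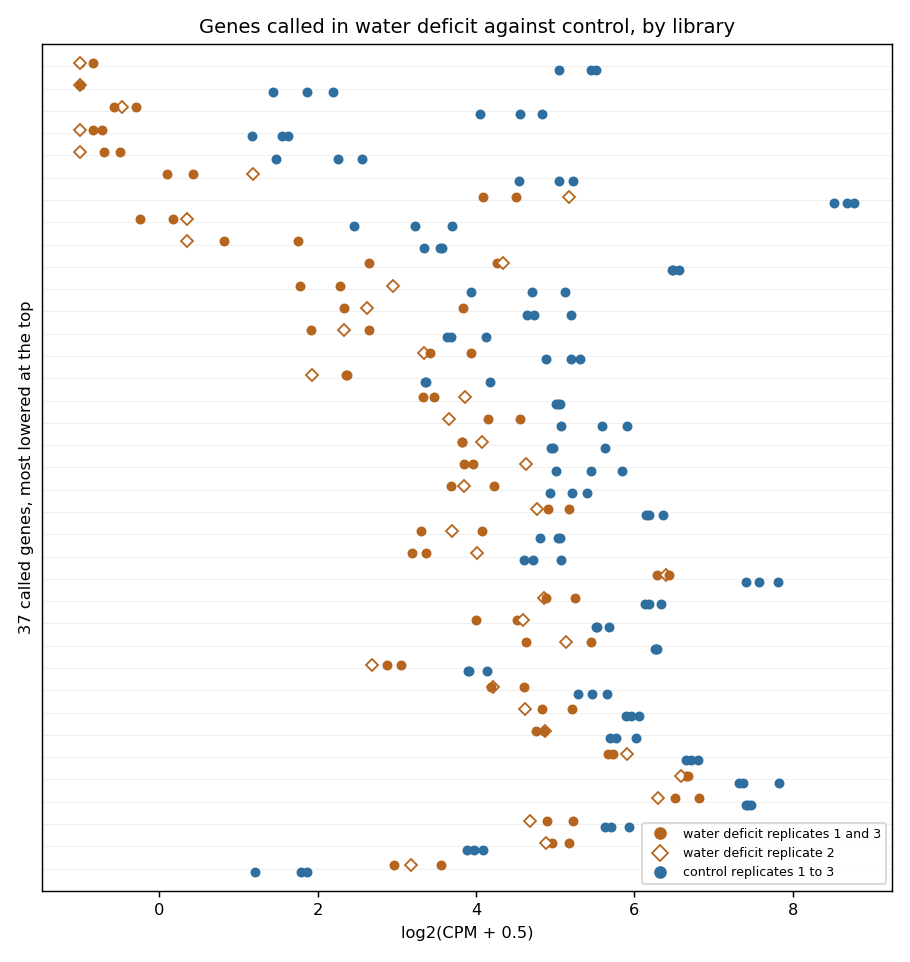
Level of each of the 37 called genes in the 3 water-deficit libraries (brown) and the 3 control libraries (blue), as log2(CPM + 0.5) on the horizontal axis, with 1 row per gene and the most lowered gene at the top. Water deficit replicate 2 is the open diamond. In the 35 upper rows every brown symbol lies left of every blue one, and in the 2 rows at the bottom, the raised genes, it lies right.

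Genes are named by their deposited IDs, limited to 2 in each direction because the IDs carry no names. The 2 raised ones are the only genes called higher with all libraries, and both were also called without replicate 2. Neither passed when the 2 groups were fitted alone (edgeR adjusted p = 0.208 for GLYMA_06G177600 and 0.0683 for GLYMA_04G014000; 18 calls, 0 higher), nor by limma on FPKM (adjusted p = 0.142 and 0.151; 15 calls, 0 higher). GLYMA_06G177600 had 11.2, 8.53 and 7.27 CPM in water deficit replicates 1, 2 and 3, against 1.82, 3.13 and 2.96 CPM in control replicates 1, 2 and 3. The lowest water-deficit library was above the highest control library. Its mean was 9.01 ± 2.02 CPM in water deficit and 2.64 ± 0.714 CPM in control (SD, n = 3 each), a 3.42-fold higher level (log2 change 1.78, SE 0.28, edgeR adjusted p = 0.0127). Without replicate 2 the log2 change was 1.83 (SE 0.30, edgeR adjusted p = 0.0239), and the call was lost without control replicate 1 (edgeR adjusted p = 0.0545) or control replicate 2 (edgeR adjusted p = 0.0591). It also missed the threshold with limma-voom (adjusted p = 0.172).

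GLYMA_04G014000, the other raised gene, had 30.7, 29.1 and 35.5 CPM in water deficit and 16.4, 14.3 and 15.2 CPM in control. The groups did not overlap, and the spread within each was small beside the difference. The means were 31.8 ± 3.35 CPM in water deficit and 15.3 ± 1.06 CPM in control (SD, n = 3 each), a 2.07-fold higher level (log2 change 1.05, SE 0.17, edgeR adjusted p = 0.0160). Without replicate 2 the log2 change was 1.11 (SE 0.18, edgeR adjusted p = 0.0239). Leaving out water deficit replicate 3, control replicate 2 or control replicate 3 ended the call (edgeR adjusted p = 0.151, 0.124 and 0.0913).

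The raised genes were next compared per unit of gene length. In the authors' FPKM values GLYMA_06G177600 stood at 21.3 ± 8.32 in water deficit and 5.99 ± 1.53 in control, and GLYMA_04G014000 at 14.6 ± 1.99 in water deficit and 7.66 ± 0.574 in control (SD, n = 3 each). On this length-corrected scale GLYMA_06G177600 had the higher mean in water deficit and the lower mean in control, although its CPM was lower in both.

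Of the lowered genes, GLYMA_02G028100 and GLYMA_13G304400 had the smallest unadjusted p without replicate 2, where 5 lowered genes shared the smallest adjusted p. GLYMA_02G028100 had 4.36, 7.21 and 2.92 CPM in water deficit and 34.4, 25.5 and 14.8 CPM in control. Replicate 2 was the highest of the water-deficit libraries but below the lowest control library. The means were 4.83 ± 2.18 CPM in water deficit and 24.9 ± 9.86 CPM in control (SD, n = 3 each), a log2 change of -2.37 (SE 0.37, edgeR adjusted p = 0.0127) that became -2.77 (SE 0.39, edgeR adjusted p = 0.0120) without replicate 2. GLYMA_13G304400 had 15.1, 24.3 and 13.9 CPM in water deficit and 57.1, 43.3 and 31.8 CPM in control. Here too replicate 2 lay between the other water-deficit libraries and control. With means of 17.8 ± 5.71 CPM in water deficit and 44.0 ± 12.7 CPM in control (SD, n = 3 each), its log2 change was -1.31 (SE 0.23, edgeR adjusted p = 0.0224), and -1.60 (SE 0.23, edgeR adjusted p = 0.0120) without replicate 2. Neither passed when the 2 groups were fitted alone (edgeR adjusted p = 0.148 for GLYMA_02G028100 and 0.309 for GLYMA_13G304400), nor by limma on FPKM (adjusted p = 0.149 and 0.151). Both calls were also lost without any one of control replicate 1, control replicate 2, water deficit replicate 1 and water deficit replicate 3 (edgeR adjusted p from 0.0506 to 0.0944 for GLYMA_02G028100 and from 0.0816 to 0.187 for GLYMA_13G304400). Their FPKM means were 7.14 ± 5.97 and 16.2 ± 3.01 in water deficit, against 38.9 ± 6.40 and 40.6 ± 12.7 in control (SD, n = 3 each).

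**Figure D3:**
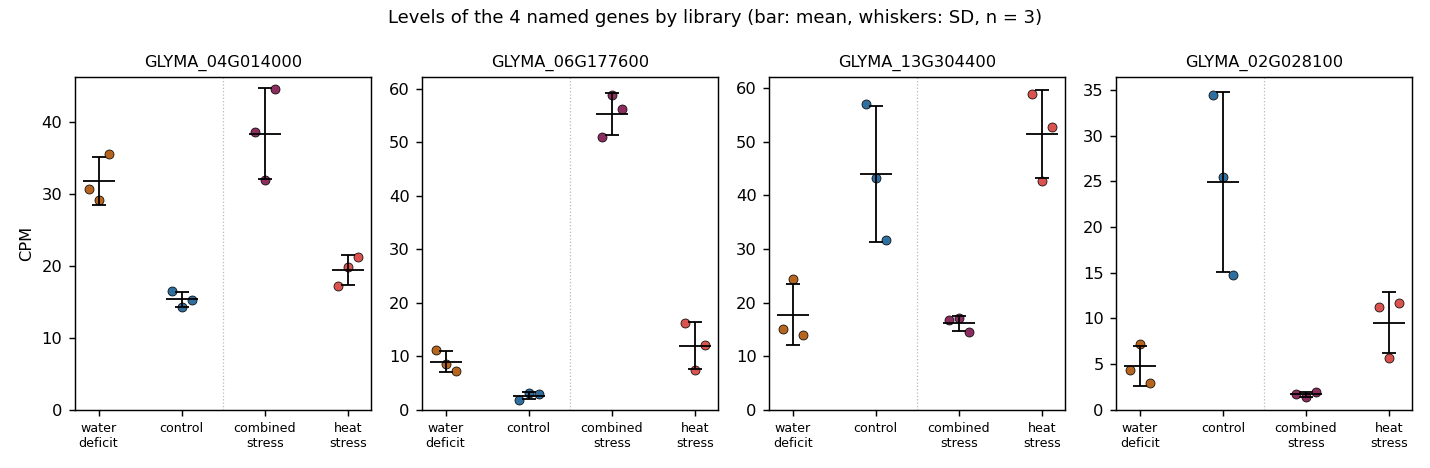
Level of the 4 named genes in CPM (vertical axes from 0) in water deficit, control, combined stress and heat stress. Points are the 3 libraries of a group, with the mean and SD. In each panel water deficit and control do not overlap, and combined stress and heat stress, to the right of the dotted line, differ in the same direction without overlap.

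With and without water deficit replicate 2, 20 genes were called in both fits, 18 lower and 2 higher, which is 54.1% of the 37 and 83.3% of the 24. The 17 genes that were called only with the library were all lower with and without it. Their median log2 change was -1.56 with replicate 2 and -1.42 without it, and the change was smaller without it for 13 of the 17. Their adjusted p without it ranged from 0.0721 to 0.244 (edgeR). The 4 genes called only without the library comprised 3 lower and 1 higher. In the 3 lower ones replicate 2 lay above both other water-deficit libraries, and in the higher one below both, in each case on the side of control. Both sets were split off by the effect of replicate 2 on the call. Such patterns are therefore largely set by the split and are no separate result about this library.

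Replicate 2 took no part in choosing the 24 genes called without it, and its level at those genes can be read against control, although the control libraries are shared. It lay below all 3 control libraries for 20 of the 21 genes called lower, as it did for 38.2% of all tested genes. For the 3 genes called higher it lay above all 3 control libraries, as for 30.5% of all tested genes.

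Low water was also imposed at 38 °C by day, and combined stress against heat stress gives the same step in water supply in 6 other libraries, which entered the first comparison through the shared filter and estimate of spread. Fitted on its own 6 libraries, the first comparison gave 18 calls, 12 of them among the 37, and a fit of the 6 higher-temperature libraries alone called 77.8% of the 18, all of which were lower, with the same sign. That fit called 2.77% of all its genes lower and 2.17% higher. In these, the transcripts called at the lower temperature mostly moved the same way. Of the 35 lowered genes, 33 had a negative log2 change there, and 25 (71.4%) were called lower, where 3.61% of all genes tested were called lower and 51.3% had a negative change. Most of the 35 averaged 10 CPM or more, and at that level 6.28% of all tested genes were called lower and 55.7% had a negative change. For 32 of the 35 all combined-stress libraries lay below all heat-stress libraries, against 13.3% of all genes tested. Both raised genes were called higher, as were 1.64% of all genes tested. Their combined-stress libraries lay above all heat-stress libraries, as did those of 11.7% of all genes tested. The background depended on the scaling: by library size alone 820 genes were called higher and 944 lower at the higher temperature, against 634 higher and 1398 lower with composition-based factors. It also depended on single libraries, with 1168 genes called without heat stress replicate 3, and 943, 548 and 1165 without combined stress replicates 1, 2 and 3, against 2032 with all. The share of the water-deficit calls that were also called at the higher temperature in the same direction was 73.0% with all libraries (95% Wilson interval 57.0 to 84.6%, which treats genes as independent) and 87.5% of 24 calls without water deficit replicate 2, where the spread used at the higher temperature was estimated without this library too and 4.01% of all genes tested were called lower and 2.50% higher. In the fit with all libraries 18 of the same 24 genes were called at the higher temperature. It was 57.1% of 35 calls without combined stress replicate 2.

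Most of the steep falls were also below a log2 change of -2 at the higher temperature, 9 of 11, and the abundant gene that led their sum in control was not, at -1.72. All 11 had a negative change there, from -10.07 to -1.18 with a median of -2.81, and 10 were called lower. The value -10.07 belongs to a gene at 0 CPM in every combined-stress library and is not a measured ratio. The 24 moderate falls had changes from -2.26 to 0.45 with a median of -0.97, and 15 were called lower. Summed over the 11 steep falls, combined-stress libraries held 37.5 to 45.2 CPM and heat-stress libraries 104 to 252 CPM. The combined-stress values lay within the range of the water-deficit libraries, and the heat-stress values between those of the water-deficit and the control libraries.

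The named genes showed the same at the higher temperature. GLYMA_06G177600 had 51.0, 58.8 and 56.2 CPM in combined stress and 16.3, 7.43 and 12.1 CPM in heat stress (log2 change 2.21, SE 0.26, edgeR adjusted p = 0.000108). Every combined-stress library lay above every library of the other 3 conditions. GLYMA_04G014000 averaged 38.3 ± 6.31 CPM in combined stress and 19.4 ± 2.04 CPM in heat stress (SD, n = 3 each), a log2 change of 0.99 (SE 0.17, edgeR adjusted p = 0.00225). GLYMA_02G028100 averaged 1.70 ± 0.277 CPM in combined stress and 9.55 ± 3.37 CPM in heat stress (SD, n = 3 each), a log2 change of -2.48 (SE 0.39, edgeR adjusted p = 0.00109). GLYMA_13G304400 averaged 16.2 ± 1.39 CPM in combined stress and 51.5 ± 8.23 CPM in heat stress (SD, n = 3 each), a log2 change of -1.67 (SE 0.23, edgeR adjusted p = 0.000349). The difference between the changes at both temperatures was -0.11 (SE 0.50) for GLYMA_02G028100, -0.36 (SE 0.32) for GLYMA_13G304400, 0.42 (SE 0.37) for GLYMA_06G177600 and -0.064 (SE 0.24) for GLYMA_04G014000, on the log2 scale. None of the 4 differences passed the interaction test (edgeR adjusted p from 0.752 to 0.966), which does not show that the changes were equal. Among all 37 called genes, chosen by one of the changes this test compares, 2 passed it, both lower in water deficit than in control and with a log2 change of 0.21 and 0.45 at the higher temperature, where 0.139% of all genes tested passed. Neither passed without water deficit replicate 2 (edgeR adjusted p = 0.0599 in both).

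**Figure D4:**
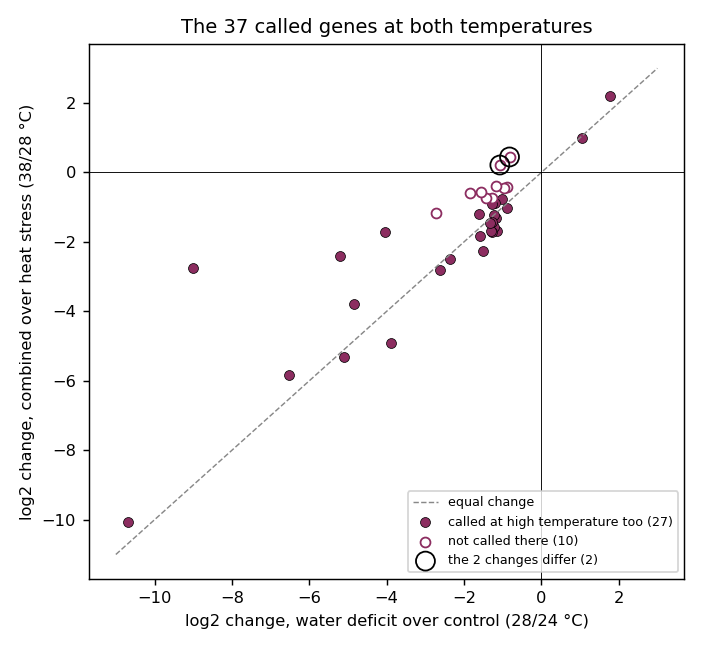
Log2 change of the 37 called genes, water deficit over control at 28/24 °C (horizontal axis) against combined stress over heat stress at 38/28 °C (vertical axis), from libraries that are not shared. Filled points are the 27 genes also called at the higher temperature in the same direction, open points the 10 that were not, and rings the 2 genes whose changes differed by the interaction test. Most points lie in the lower left, near the dashed line of equal change.

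Outside the calls, a small share of transcripts lay apart in the groups. Among genes averaging 10 CPM or more that were not called, 923 (4.93% of the 18736 at that level) were higher and 1157 (6.18%) lower in every water-deficit library than in every control library, with median log2 changes of 0.30 and -0.34. With the called genes included the shares were 4.93% higher and 6.32% lower. With so few libraries some genes lie apart in this way though nothing changed. No test was applied, so these are not counts of changed genes. At least 2-fold differences were rare among the 923 and 1157 genes, 7 higher and 23 lower, and the largest were 1.76 and -4.56 on the log2 scale. At the higher temperature all 23 of these lower genes had a negative change, and 15 (65.2%) were called lower, where 6.28% of all tested genes at that level were. Of the 7 higher genes 6 had a positive change, and 4 (57.1%) were called higher, where 1.51% of all tested genes at that level were. Without replicate 2, where 2 libraries are more easily set apart from 3, 2080 genes that were not called were higher (11.1% of 18691) and 2156 lower (11.5%). Among these, 20 were at least 2-fold higher and 49 at least 2-fold lower, of which 4 (20.0%) and 31 (63.3%) were called in the same direction at the higher temperature. With no limit on the size of the change, 175 of the 1157 lower genes (15.1%) were called lower there and 12 called higher. For the 923 higher genes, 34 (3.68%) were called higher there and 29 called lower.

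Few transcripts went from at least 10 counts in control to 0 in water deficit, and fewer went the other way. Of all 57147 IDs, 6 had at least 10 counts in each control library and 0 counts in all 3 water-deficit libraries, and 12 did so when replicate 2 was left out of account. These counts apply no test and are not scaled to depth. Control libraries were mostly deeper, so the rule is met more readily by losses than by gains. Of the 37 called genes, only the steep fall with 3.13 CPM in control was among the 6, and the rest of the 6 were not called. Conversely, 0 IDs had at least 10 counts in each water-deficit library and 0 in all control libraries, and 3 did so without replicate 2. In replicate 2 a count of 0 does not limit the level to the floor given above, since 56 genes at a steady level elsewhere had 0 counts there.

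The called genes were spread over the genome, as far as their IDs show it. Soybean IDs of this form carry the chromosome number, and the 37 lay on 16 chromosomes, with at most 4 on one. The closest pair on a chromosome, both steep falls on chromosome 2, were 700 apart in ID number, and one of them was GLYMA_02G028100. None of the 136 tested genes whose IDs begin with GLYMA_U, which carry no chromosome number, and none of the 87 tested genes whose IDs begin with ENSRNA were called by edgeR. The share called over all tested genes was 0.0955%, so 0 calls in classes this small do not set them apart. With DESeq2 1 GLYMA_U gene and 0 ENSRNA genes were called, and with limma-voom 0 of both. In edgeR 6 GLYMA_U and 5 ENSRNA genes had an unadjusted p under 0.05, as had 1685 of all 38737 genes tested.

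**Figure D5:**
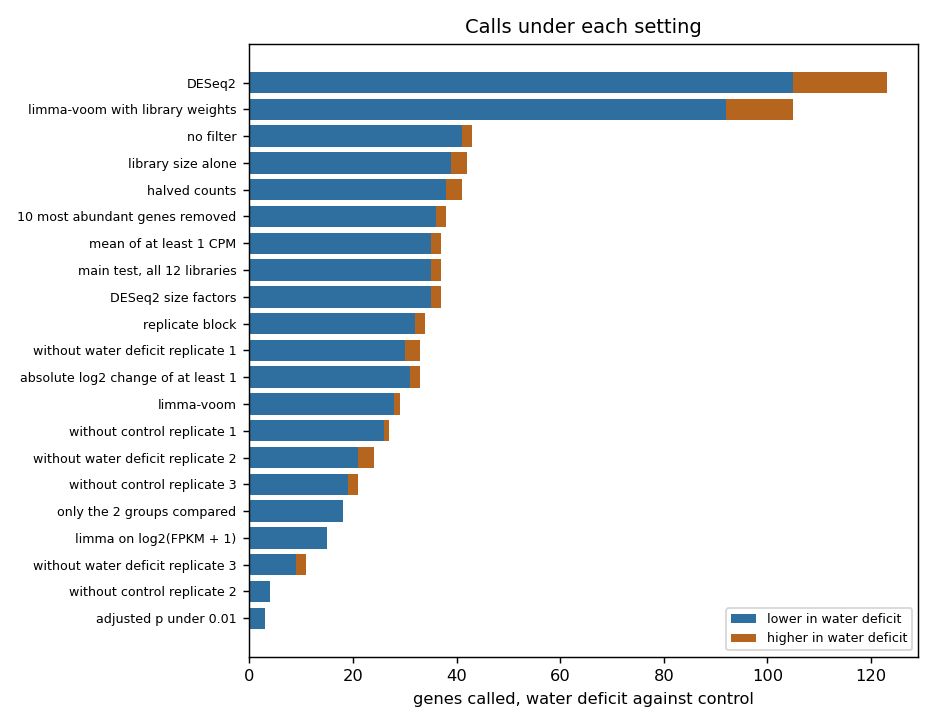
Number of genes called in water deficit against control (horizontal axis from 0) under each setting of the test, with lower genes in blue and higher genes in brown. The count was 37 with all 12 libraries, 4 without control replicate 2 and 123 with DESeq2, and lower genes outnumbered higher ones under every setting shown.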

How the data were processed

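Read counts per gene and FPKM values were deposited as tables with a column for each library. HISAT2 2.2.1 is listed, per the submitters' processing notes. The counting tool, strand setting, annotation and genome build are not given in the sources used here, and how reads of near-identical genes were assigned is unknown. Columns were matched to samples by their labels. None of the 57147 IDs matched the gene table at hand (0 matches), so the planned gene lists and marker lists were not run, and no coordinates or sequences are given.

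Counts were tested with edgeR 4.0.16 (R 4.3.3): TMM factors (0.951 to 1.06), filterByExpr by group, robust quasi-likelihood fit of 4 group means, Benjamini-Hochberg adjustment over all genes tested. The SE is the log2 change divided by the square root of F. CPM values use TMM factors. The fit was repeated without water deficit replicate 2, with filter and spread estimated anew. The authors' FPKM values served as a second readout and in limma 3.58.1 on log2(FPKM + 1). Their ratio to the counts varied, with 612 to 1391 genes per library at FPKM 0 with at least 10 counts. Another 1270 to 1748 genes per library had an FPKM above 0 with 0 counts. DESeq2 1.42.0 and limma-voom were alternatives. Scripts were tested on simulated data. The replicates were not duplicates (chi-square per degree of freedom 9.74 to 38.3 within groups).

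Named genes were, by rule, those called higher, and those called lower with and without replicate 2 whose groups did not overlap, by smallest p without it (20 genes met the last criteria, 18 lower and 2 higher), limited to 2 each way. The comparison and the planned lists were chosen with earlier results of these data known.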

Additional observations from a re-analysis of the deposited data

Results flagged for a closer look

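Among the 37 called genes, 2 had a change with water deficit that differed between temperatures by the interaction test of edgeR. One was lower in water deficit, at 29.5 ± 6.33 CPM against 62.2 ± 3.75 CPM in control (SD, n = 3 each; log2 change -1.07), and had 352 ± 45.7 CPM in combined stress against 304 ± 35.6 CPM in heat stress (log2 change 0.21). The difference of the changes was 1.29 (SE 0.22, edgeR adjusted p = 0.0246). The other had 30.5 ± 5.90 CPM in water deficit against 53.9 ± 6.04 CPM in control (SD, n = 3 each; log2 change -0.82), and 223 ± 17.3 CPM in combined stress against 163 ± 8.99 CPM in heat stress (log2 change 0.45). Its difference was 1.27 (SE 0.21, edgeR adjusted p = 0.0242). Without water deficit replicate 2 the differences were 1.18 and 1.17 and neither passed (edgeR adjusted p = 0.0599 in both). The second gene was then not called in water deficit against control either (edgeR adjusted p = 0.224), nor with the replicate number as a block (0.0527). Both differences also missed 0.05 without control replicate 2 (0.129 in both), control replicate 3, water deficit replicate 3, heat stress replicate 3, combined stress replicate 1 or combined stress replicate 2. Over all 38737 genes tested, 54 (0.139%) passed this test.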

How the results depend on the processing

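The 37 calls of water deficit against control became 3 at an adjusted p under 0.01, 18 when only the 2 groups were fitted (12 of them among the 37, 0 higher), 15 with limma on FPKM (8 among the 37, 0 higher), 105 with library weights in limma-voom, a setting chosen after the data were seen, and 123 with DESeq2 (all 37 included). Leaving out 1 water-deficit or control library gave 4 to 33, and leaving out 1 heat-stress or combined-stress library 29 to 40, with the filter rerun or the genes tested held. Without water deficit replicate 2, the 24 calls became 0 at an adjusted p under 0.01 (1737 genes at an unadjusted p under 0.05, and 110 calls by DESeq2 at 0.05), 44 with no filter, 14 with limma-voom, 67 with library weights and 110 with DESeq2, and 3 to 15 when another library was also left out (4 higher and 1 lower without water deficit replicate 3, and 2 higher and 1 lower with the genes tested held). Where that left 1 water-deficit library, it was assumed to vary like the other groups. The 2032 calls of combined stress against heat stress became 671 at an adjusted p under 0.01, 1029 when a 2-fold change was also required and 3139 with DESeq2, and 546 to 2468 with a library left out. Calls shared with and without replicate 2, 20 in the main test, were 32 with no filter, 13 at a mean of at least 1 CPM, 83 with DESeq2, 12 with limma-voom and 60 with library weights. The share of calls also called at the higher temperature, 73.0%, became 55.8% with no filter, 56.1% with DESeq2, 49.5% with library weights and 57.1 to 100% with a library left out, the highest from 4 calls. With the replicate number as a block, 34 genes were called (29 among the 37), 22 without replicate 2 and 15 in both (0 higher), and 1723 at the higher temperature. The numbers may pair nothing, since the deviations of same-numbered water-deficit and control libraries from their group means correlated at -0.219, -0.0546 and -0.0441. The cause was not tested for any of these changes. DESeq2 gave no adjusted p for 6 genes, and for 783 without replicate 2. The log2 changes of the 4 named genes kept their sign in all 24 alternatives each, with adjusted p up to 0.151, 0.208, 0.309 and 0.149 for GLYMA_04G014000, GLYMA_06G177600, GLYMA_13G304400 and GLYMA_02G028100. Under 1 CPM, where the median standard error was 1.37, edgeR called 0 of 5406 genes and DESeq2 called 12.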
